A study of Mus musculus with 3 samples.

Results

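Mdm2, Mdm4, Ccng1, Zmat3, Trp53inp1 and Phlda3 gave clear signal in R1 mouse embryonic stem (ES) cells. They are the regulators and targets of the tumour suppressor p53 that could be read here. Between repeats the highest value was 1.24 times the lowest for Zmat3 and at most 1.14 times for the others. The list was named by symbol and held 8 genes, with Trp53 and Cdkn1a beside those 6, out of 19057 genes measured. A gene was taken where a probe set carried its symbol alone in the platform annotation, and each of the 6 had 1 such probe set. Trp53, the gene of p53 itself, had no such probe set in the annotation used here. Cdkn1a, which encodes the p53-induced cell cycle inhibitor p21, had 1 probe set that is annotated to a second gene as well. Neither was analysed here, so no value below is a level of p53 or p21 RNA.

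The data were 3 arrays of 1 group, R1 cells of strain 129, whose total RNA was put on Affymetrix Mouse Gene 1.0 ST arrays, with probes along the exons of each transcript. The labels give no treatment, genotype change, passage or culture condition, and there is no second condition. The comparison the design allows is between the repeats, which are called biological, and between each gene and the array's background. R1 is a single line, so the spread is that of repeats of this line and not of ES cells in general.

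p53 is a transcription factor that cells keep scarce by constant destruction and that is released by DNA damage and other stress. Mdm2 attaches ubiquitin to p53, and its relative Mdm4 covers the activating part of p53; Mdm2 is itself switched on by p53, which closes a negative loop. Active p53 raises genes of cell cycle arrest, death, metabolism and repair. In mouse ES cells p53 is known for lowering Nanog after DNA damage.

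Ccng1 encodes cyclin G1, a partner of the phosphatase PP2A that acts on Mdm2. Its promoter window is shown because it was the only 1 among the measured members to hold a match to the p53 full site. It spans chr11:40755237-40755536 on the minus strand of GRCm38.p6 in RefSeq, from 250 bases before to 50 bases after the annotated start, 5′ to 3′, with the p53 site in capitals:
Ccng1 promoter: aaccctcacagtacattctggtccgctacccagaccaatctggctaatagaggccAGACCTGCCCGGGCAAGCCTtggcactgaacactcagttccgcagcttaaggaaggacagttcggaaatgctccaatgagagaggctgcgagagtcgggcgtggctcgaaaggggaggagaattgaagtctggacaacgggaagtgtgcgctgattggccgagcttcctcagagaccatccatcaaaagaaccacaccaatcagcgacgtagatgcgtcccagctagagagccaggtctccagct
The site lay at -195 to -176 from the start, with no base between its half-sites and 1 mismatch to the consensus. A match was defined as 2 copies of the published p53 half-site, 0 to 13 bases apart, with at most 2 mismatches in all and none at the C and G core of either copy. The half-site is its own reverse complement, so both strands were searched at once. Such a match occurred in 4.09% of all 32851 RefSeq windows of the same length, and in 0.627% with at most 1 mismatch.

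Of the 6 measured members, 4 had 5 windows in the table, and 1 window, that of Ccng1, held a match. The windows of Mdm2, Mdm4 and Phlda3 held none. The p53-responsive promoter of Mdm2 is known to lie in its first intron, and the window searched was at the upstream start. Zmat3 and Trp53inp1 were not in the table. Of the 2 members that were not read, Cdkn1a held a match in 1 of its 2 windows. Among 66 other genes of the pathway 8 held a match in 82 windows. Only the best match of each window, that with the fewest mismatches, was compared. The window of Cdkn1a held 2 matches, and its best had 12 bases between the half-sites, so it is not listed. Best matches with no base between the half-sites are set beside that of Ccng1 to show how the copies vary:
Ccng1: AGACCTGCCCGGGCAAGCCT
Gtse1: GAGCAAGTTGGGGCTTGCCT
Ckap2: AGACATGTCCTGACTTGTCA
Trp73: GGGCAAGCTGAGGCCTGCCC
The site of Gtse1 had 1 mismatch, and those of Ckap2 and Trp73 had 2 each. A match describes letters in a window and shows neither binding nor regulation.

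Values are probe set intensities as deposited, on a linear scale, or their log2. Background was set on each array by 1184 olfactory and vomeronasal receptor genes, and a gene passed it where its value lay over their 95th percentile, at intensities of 26.3, 24.2 and 24.3 in repeats 1, 2 and 3. A higher cutoff, the 95th percentile of 119 genes of other families that are silent in most tissues, lay at 81.1, 79.5 and 81.5. Different probe sets bind with different strength, so the level of one gene was not set against that of another.

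All 6 measured members were above background on all 3 arrays, where 71.6% of the 17873 genes outside the receptor families were. All 6 were also above the higher cutoff on all 3 arrays, which 40.8% of those genes passed. The members lay between 3.28 and 6.55 log2 units above the receptor cutoff of their array. In this bulk RNA, fewer cells with a transcript and less transcript per cell cannot be told apart.

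**Figure D1:**
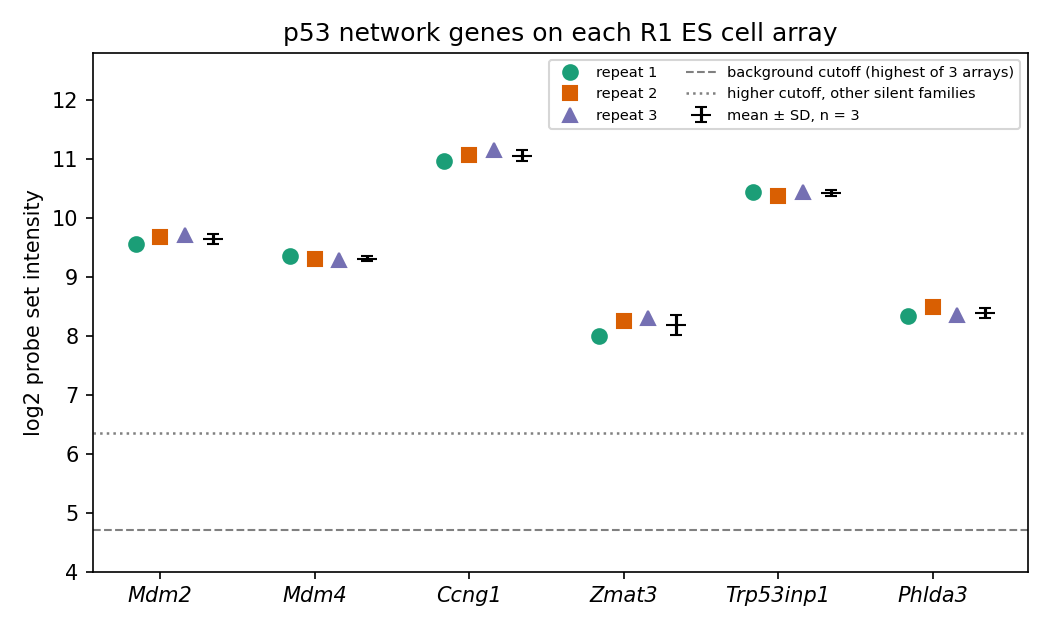
log2 probe set intensity (vertical axis) of the 6 measured p53 network genes, with 1 point per R1 ES cell array and the mean ± SD over the 3 arrays in black. Dashed and dotted lines mark the highest receptor cutoff and the highest cutoff of other silent families. Every point lies above both lines, and the SDs run between 0.039 and 0.17 log2 units.

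The inhibitors of p53 came first in the comparison between repeats. Mdm2, the ubiquitin ligase of p53, read 754, 821 and 842 in repeats 1, 2 and 3. Repeat 1 was lowest, and the highest value was 1.12 times the lowest. On the log2 scale the level was 9.65 ± 0.083 (SD, n = 3). Mdm4, the ligase's non-degrading relative, read 657, 631 and 624. Its level was 9.31 ± 0.039 on the log2 scale. Repeat 1 was highest for Mdm4 and lowest for Mdm2, but the highest and lowest values of Mdm4 differed only 1.05-fold. The 2 paralogs did not share an order of repeats at this spread.

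Ccng1 and Trp53inp1 are targets that feed back on p53 or on cell fate. Ccng1 read 2001, 2144 and 2272, a level of 11.06 ± 0.092 log2 units (SD, n = 3). Repeat 1 was lowest and repeat 3 highest, 1.14 times apart. Trp53inp1 encodes a stress-induced nuclear protein that promotes p53 phosphorylation and has a role in autophagy. It read 1398, 1322 and 1398, with a level of 10.42 ± 0.046 on the log2 scale. Repeats 1 and 3 were nearly the same for Trp53inp1, and repeat 2 lay 1.06-fold below the highest.

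Zmat3 and Phlda3 are targets that act on RNA and on growth signalling. Zmat3, a zinc finger protein that binds RNA and takes part in splicing downstream of p53, read 255, 304 and 318. Repeat 1 stood below the other 2, and the highest value was 1.24 times the lowest. Its level was 8.19 ± 0.17 on the log2 scale (SD, n = 3), the largest SD of the 6. Phlda3, a pleckstrin homology protein that restrains the kinase Akt, read 325, 359 and 327. Repeat 2 was the high one for Phlda3, 1.11 times repeat 1, and its level was 8.40 ± 0.082 log2 units.

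None of the 6 members was called as varying between repeats beyond the trend of other genes at their level. The variance test set each gene's variance over the prior variance that limma fitted at its level, against an F distribution. Benjamini-Hochberg adjusted over 13610 genes, it called 0 of 6 members and 22 genes in all, a background of 0.162%. Where limma is named with a p, this test is meant. Adjusted p was 0.975 for Zmat3 and between 0.997 and 0.998 for the other 5. At an unadjusted p under 0.05 the count of members was also 0, against a background of 5.75%, with the lowest unadjusted p of 0.135 for Zmat3. Without repeat 2, 1 member, Zmat3, had an unadjusted p under 0.05 (0.036 in the limma fit, adjusted p = 0.853). A p of this kind does not show that the repeats were equal. On simulated data the test recovered 6% of changes of 0.5 log2 units on 1 array, 68% of changes of 1 and 100% of changes of 1.5, beside 11 calls among unchanged genes. The simulated variances followed the fitted trend that the test itself uses, and 200 genes were changed. These rates may therefore overstate recovery on the real arrays. A shift as small as those above would rarely have been called.

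The median SD of the 6 members was 0.082 log2 units, and that of the 12841 genes above background on all 3 arrays was 0.101. Mdm4 had an SD above that of 10.8% of those genes and Trp53inp1 above that of 14.8%. Phlda3, Mdm2 and Ccng1 exceeded 37.1%, 38.2% and 44.0%. Zmat3 exceeded 80.4%. This order depended on the scaling. After quantile normalization the SD was 0.069 for Mdm4 and 0.072 for Trp53inp1, above the 0.053 of Phlda3, 0.059 of Mdm2 and 0.060 of Ccng1, while Zmat3 still had the largest, at 0.15.

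**Figure D2:**
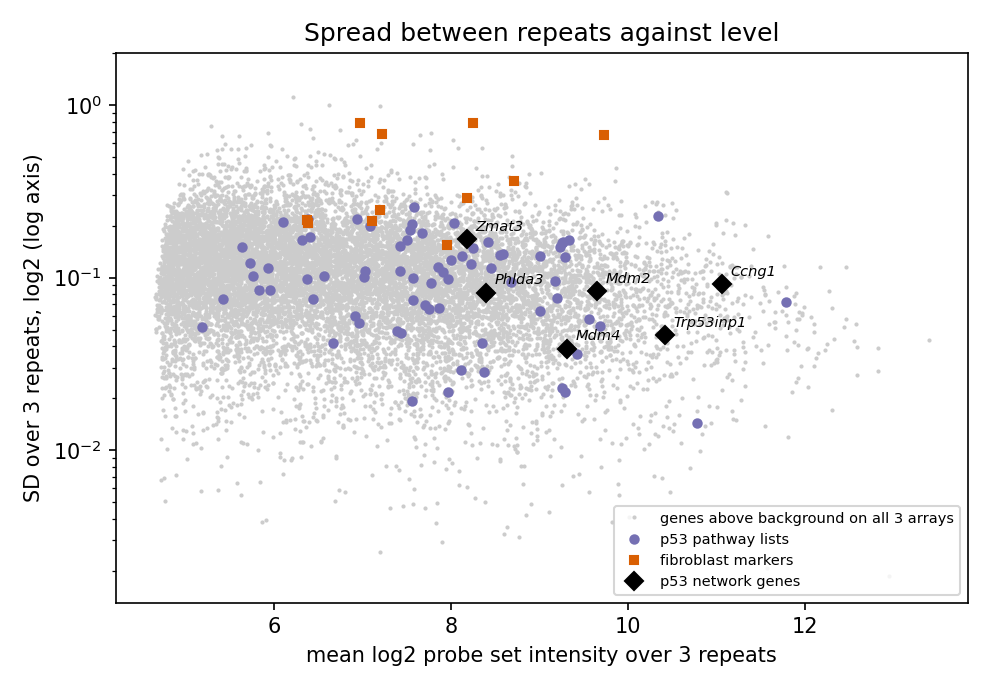
SD over 3 repeats (log axis, log2 units) against mean log2 intensity for genes above background on all 3 arrays (grey), the p53 pathway lists (circles), fibroblast markers (squares) and the 6 measured p53 network genes (diamonds). The diamonds lie inside the grey cloud, with Mdm4 lowest at 0.039 and Zmat3 highest at 0.17.

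Mdm2, Ccng1 and Zmat3 had the same lowest repeat and the same highest repeat. Repeat 1 was lowest and repeat 3 highest for 3 of 6 members and for 17 of 76 other pathway genes, and this held for 15.5% of genes above background on all 3 arrays. Repeat 1 lay below the mean of the other repeats by a log2 difference of -0.14 for Mdm2, -0.14 for Ccng1 and -0.28 for Zmat3. Their lowest and highest repeats stayed those under quantile normalization and median centring. For Mdm4, Trp53inp1 and Phlda3 the highest or the lowest repeat changed under quantile normalization or median centring. With 3 repeats and no called member, these orders are descriptions of single arrays.

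Likeness to Zmat3, the member with the largest SD, was measured as the root mean square difference of log2 values centred on each gene's mean, over 3 repeats. The nearest genes were Ssu72, a phosphatase of RNA polymerase II, at 0.0021, and Ndc80, a kinetochore subunit, at 0.0029. As many as 420 of 12840 genes lay within 0.05 of Zmat3, so 3 arrays separate few profiles.

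The labelled cell type was checked against markers. All 6 ES cell markers were above background on all 3 arrays, among them Pou5f1 at 11.77 ± 0.12, Sox2 at 10.78 ± 0.017, Nanog at 11.002 ± 0.20 and Esrrb at 10.13 ± 0.057 log2 units (SD, n = 3). Zfp42, a marker of naive ES cells, had the largest SD of them, with 11.24, 11.34 and 10.75 log2 units in repeats 1, 2 and 3, and did not pass the variance test (limma, adjusted p = 0.153). Repeat 2 was highest for 5 of the 6 ES cell markers. The leukocyte genes Ptprc, Cd79a and Lyz2 were below the cutoff on every array, and Cd3e, at 5.504 ± 0.18, was above it but below the higher cutoff. Of 13 fibroblast markers 11 were above background on all 3 arrays, Lum was below it on all 3 and S100a4 on 1. Summed over the 13 markers the intensity was 2436, 4246 and 2409 in repeats 1, 2 and 3. Of this, Thbs1 gave 673, 1449 and 630. Dcn, above both cutoffs on all 3 arrays, read 8.06, 8.02 and 7.77 log2 units, with repeat 1 highest. Repeat 2 was highest for 10 of the 13, all but Dcn, Lum and S100a4. Of these 10, 6 did not pass the variance test, among them the surface protein Thy1 (7.11 ± 0.21) and the collagen chains Col3a1 (7.20 ± 0.25), Col1a2 (8.18 ± 0.29) and Col1a1 (8.71 ± 0.36 log2 units). Acta2, Lox, Timp3 and Thbs1 passed the variance test (limma, adjusted p = 0.0081, 0.019, 0.033 and 0.0081). These were 4 of 12 fibroblast markers tested, beside 0.162% of all genes tested. The list was chosen with earlier results of these data known, so the calls are a description only.

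Among the p53 members, repeat 2 was highest for Phlda3 alone, as it was for 36.9% of genes above background on all 3 arrays. Phlda3 exceeded the mean of the others there by 0.14 log2 units. The part of the fibroblast and ES cell markers in that value was not tested. In repeat 2 against the mean of the others, Mdm4 had a log2 difference of -0.020 and Trp53inp1 of -0.080. The lowest value of Mdm4 was in repeat 3. Without repeat 2 the SD of Phlda3 was 0.0085 and that of Zmat3 0.22. Without repeat 1 the SD of Zmat3 was 0.044 and that of Mdm2 0.025, so their spread rested mainly on that array.

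**Figure D3:**
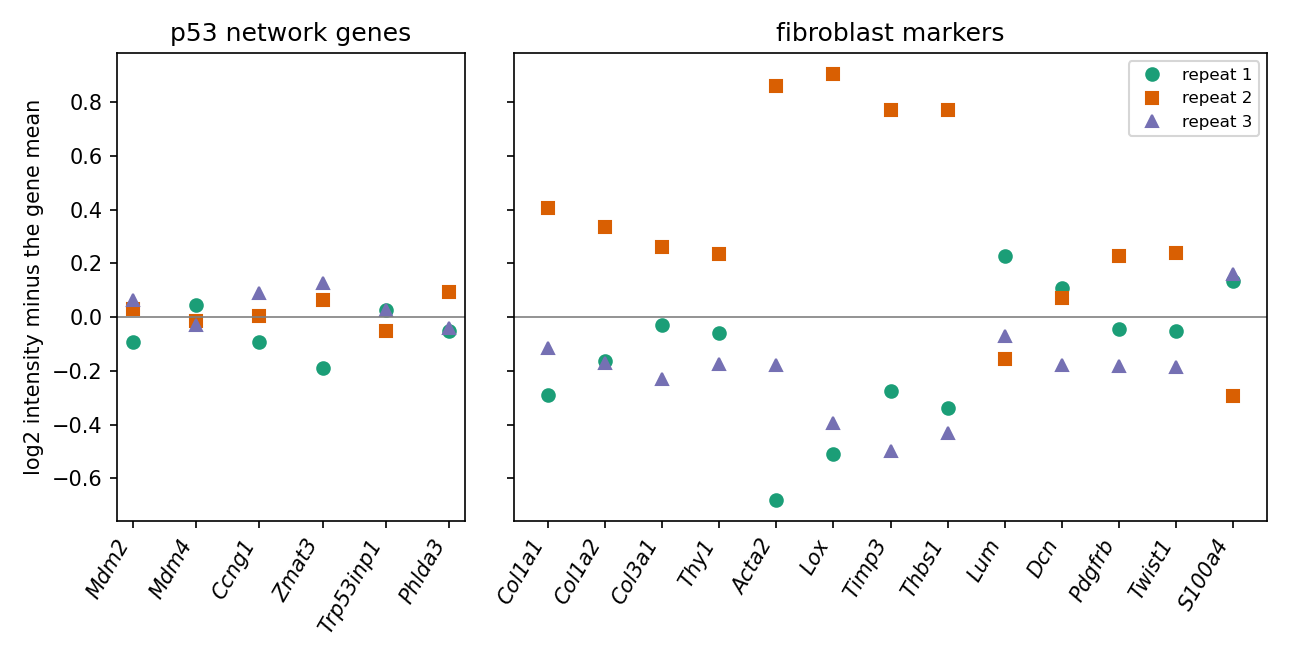
log2 intensity minus the gene's own mean (vertical axis) in each repeat, for the 6 measured p53 network genes (left) and 13 fibroblast markers (right) on one scale. The members stay within 0.19 log2 units of their means, while Acta2, Lox, Timp3 and Thbs1 stand between 0.77 and 0.90 above theirs in repeat 2.

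The rest of the pathway was read from 7 lists of 85 gene symbols, of which 76 were measured. Of these 72 (94.7%) were above background on all 3 arrays, beside 71.6% of genes outside the receptor families, 1 on some and 3 on none. On all 3 arrays 59 were above the higher cutoff, beside 40.8% of those genes. No pathway gene passed the variance test (limma, adjusted p of at least 0.532), and 2 of 73 tested had an unadjusted p under 0.05, beside 5.75% of all genes tested. The median SD of those above background was 0.102, close to the 0.101 of all such genes.

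The first list holds relatives of p53 and proteins that stabilise, modify or degrade it, and all 19 measured genes were above background. Of the 19, 14 were above the higher cutoff on all 3 arrays. Usp7, which removes ubiquitin from p53 and Mdm2, read 10.78 ± 0.014 log2 units (SD, n = 3). The inhibitor Ppp1r13l read 6.41 ± 0.17 and passed the higher cutoff on 2 arrays. The damage adaptor Trp53bp1 had the largest SD, at 8.04 ± 0.21. The p53 relatives Trp63, at 5.42 ± 0.076, and Trp73, at 5.95 ± 0.085, passed the receptor cutoff but not the higher one on any array. Signal this close to background does not establish that either gene is transcribed.

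All 9 genes of damage signalling upstream of p53 were above both cutoffs on all 3 arrays. They include the kinases Atm at 8.11 ± 0.029, Atr at 7.75 ± 0.066, Chek1 at 9.20 ± 0.076 and Prkdc at 7.43 ± 0.15 log2 units (SD, n = 3). The list's median SD of 0.066 was below the 0.101 of all genes above background.

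Cell cycle targets were all above background, 10 of 10, and 9 of them were above the higher cutoff on all 3 arrays. Btg2, an antiproliferative gene, read 7.42 ± 0.11 log2 units (SD, n = 3) and Gadd45a 9.23 ± 0.15. Sfn, a 14-3-3 protein, read 8.41 ± 0.16 and Gtse1, a microtubule-bound regulator of p53, 9.43 ± 0.036. Ckap2, which binds the mitotic spindle, was the least even, with intensities of 176, 171 and 236 in repeats 1, 2 and 3. Repeat 3 stood above the other 2, and the difference did not pass the variance test (limma, adjusted p = 0.768).

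Of 11 apoptosis targets 10 were above background on all 3 arrays. The exception was the death receptor Fas, which read 4.30 ± 0.080 log2 units (SD, n = 3) and was below the cutoff on every array. Among the BH3 proteins that trigger mitochondrial death, Pmaip1 (Noxa) read 7.50 ± 0.17, Bid 7.56 ± 0.20 and Bbc3 (Puma) 6.10 ± 0.21. Bbc3 was above the receptor cutoff and below the higher one on every array, so its signal is near background.

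All 8 metabolic and antioxidant targets were above background. Sesn2, a stress-induced inhibitor of mTORC1, read 9.26 ± 0.023 log2 units (SD, n = 3), while its relative Sesn1, at 5.93 ± 0.11, did not reach the higher cutoff. Tigar, which lowers glycolytic flux, read 7.87 ± 0.067 and Ddit4, another inhibitor of mTORC1, 6.94 ± 0.22. Gpx1, a glutathione peroxidase, gave intensities of 1127, 1273 and 1539 in repeats 1, 2 and 3 and the lowest adjusted p of all pathway genes (0.532, limma). Repeat 3 was highest and repeat 1 lowest for Gpx1. Without repeat 2 its adjusted p was 0.0482, the single pathway call made under any setting, from a fit with 2 arrays.

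DNA repair targets were above background for 6 of 6 genes, with a median SD of 0.141. Only 3 of the 6 were above the higher cutoff on all 3 arrays. Ddb2 passed it on 2 arrays and Polh on 1. Ddb2, a damage-binding protein of nucleotide excision repair, read 6.32 ± 0.17, Xpc 6.56 ± 0.10, and the polymerase Polk 7.01 ± 0.10 log2 units (SD, n = 3). The polymerase Polh had the largest SD, at 6.38 ± 0.22. Rrm2b, the p53-induced ribonucleotide reductase subunit, read 5.63 ± 0.15 and was below the higher cutoff on every array.

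Feedback and other targets were above background on all 3 arrays for 10 of 13 genes, and above the higher cutoff for 8. Ppm1d, the phosphatase that turns off p53 signalling, read 8.38 ± 0.028 log2 units (SD, n = 3), Abhd4 7.70 ± 0.069 and the small GTPase Rap2b 7.57 ± 0.074. The phosphatase gene Ptprv, at 5.73 ± 0.12, was below the higher cutoff. The remaining 3 were the miR-34 genes, which p53 activates directly and whose miRNAs repress cell cycle genes. The 5p sequence of miR-34c was not among the sequences used here, so its seed was not compared. The 5p sequences of miR-34a and miR-34b (RefSeq, GRCm38.p6) are shown with the seed, bases 2 to 8, in capitals, because these 2 share it:
mmu-miR-34a-5p: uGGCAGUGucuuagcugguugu
mmu-miR-34b-5p: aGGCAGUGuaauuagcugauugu
Mir34a read 4.65, 5.07 and 4.93 log2 units in repeats 1, 2 and 3 and passed the receptor cutoff on 2 arrays. Mir34b, at 4.05 ± 0.11, and Mir34c, at 2.69 ± 0.0076 (SD, n = 3), were below it on all 3. The array reads long RNA, so these values bear on the primary transcripts at most and not on mature miRNA.

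**Figure D4:**
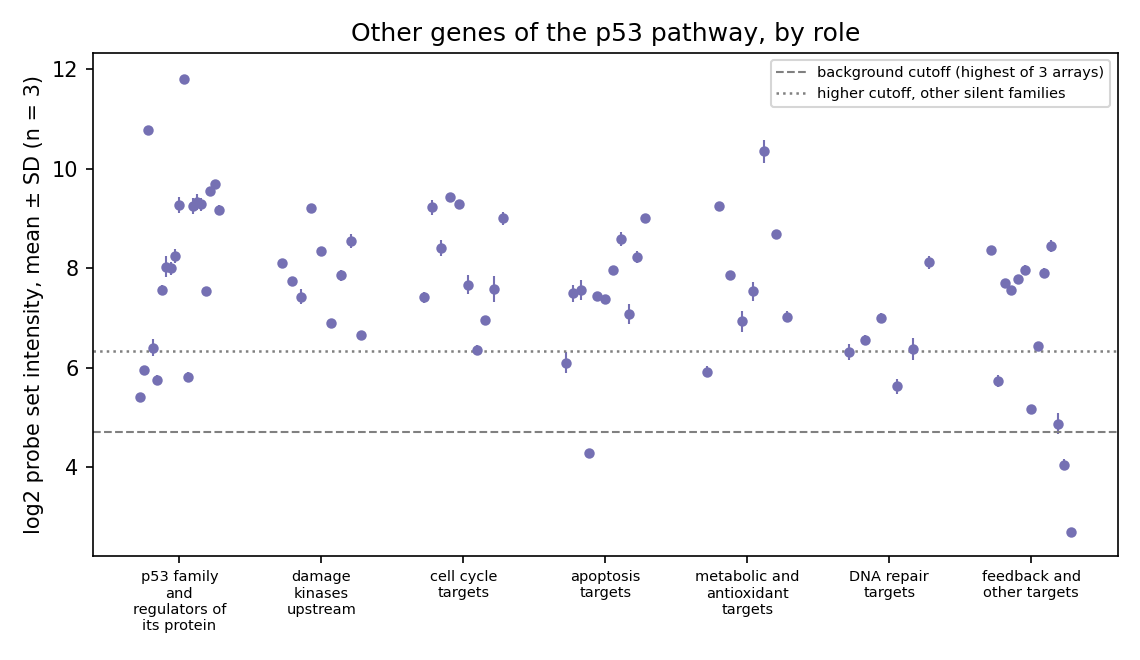
Mean ± SD over 3 repeats of log2 probe set intensity (vertical axis) for the 76 measured genes of 7 p53 pathway lists (horizontal axis, genes in the order of each list). Dashed and dotted lines are the highest receptor cutoff and the highest cutoff of other silent families; 3 genes, Fas, Mir34b and Mir34c, were below background on every array.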

How the data were processed

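The authors deposited 1 table of probe set intensities on a linear scale for 3 arrays, never below 1. The submitters' processing notes name GCOS 1.4; how background, normalization and probe set summary were handled is not given in the sources used here. Array medians were 47.8, 46.7 and 46.8, and log2 was taken without further normalization. The platform annotation gave 1 symbol to 20764 of 26730 probe sets; the 1419 with several and 4547 with none were left out. Genes with several probe sets took the mean of their log2 values. The variance test divided each gene's variance between arrays by the trended, robust prior variance from limma 3.58.1 (R 4.3.3). The ratio was set against an F distribution (2 and 9.89 degrees of freedom) for 13610 genes above background on at least 1 array. Adjustment was by Benjamini-Hochberg at 0.05. It was tested on simulated data with 200 changed genes. Python 3.11.15, numpy 2.4.6, pandas 2.3.3 and matplotlib 3.10.9 were used. The number of arrays limits precision.

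Members and lists were chosen with earlier results of these data known. Named genes are all members and, in each list, the first 4 measured, the one with the largest SD, the minority of a background split (where 5 or fewer) and those that passed the test. The genes most like Trp53 could not be named as planned, and the planned comparison of Mdm2 and Mdm4 proteins was not made for want of sequences here. Alternatives were other background cutoffs, normalizations, probe set rules and priors, and leaving out each repeat.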

Additional observations from a re-analysis of the deposited data

How the results depend on the processing

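The count of 6 members above background and the count of 0 members called held under every alternative run. The level of each member moved by less than its SD, but most runs could not have moved it further. Median centring and the probe set rule left it unchanged, and leaving out 1 repeat cannot move it by a full SD. After quantile normalization Mdm2, for one, read 9.6473 log2 units against 9.6524. The SDs moved more: with 1 repeat left out they ranged from 0.0085 to 0.10 for Phlda3, 0.044 to 0.22 for Zmat3, 0.025 to 0.11 for Mdm2 and 0.012 to 0.052 for Mdm4, and that of Trp53inp1 was at most 0.057. The number of pathway genes above background lay between 59 and 73. Over all genes, the count above background was 7288 with other silent families as background, against 12841. The variance test called 22 genes in the main setting, 13 after quantile normalization, 42 after median centring, 10 without robust fitting, 1 without the trend and 0 to 34 when 1 repeat was left out (0 without repeat 1, 34 without repeat 2, 12 without repeat 3); the cause was not tested. Leaving out repeats gave 0 to 1 pathway calls, the 1 being Gpx1 without repeat 2. The median SD of members ranged from 0.050 to 0.098. No paired analysis was possible because there is 1 group.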
